A study of Vitis rotundifolia with 36 samples.

Results

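The green-berried muscadine cultivar Granny Val was compared with the purple-berried cultivars Alachua and Supreme in the outermost tissue of the mature berry, called layer 1. The members are the layer 1 libraries, chosen by their titles: 9 of the 36 libraries of the series. Granny Val (green, skin of intermediate thickness) has 3 libraries, and the purple side has 6, of which 3 are from Alachua (thick skin) and 3 from Supreme (thin skin). The remaining 27 libraries come from layers 2 to 4 of the same cultivars. The labels name no treatment, and all berries were harvested mature from the same research vineyard. The protocol calls layer 1 the epidermis with its cuticle, and the tag on these samples reads Cuticle. The protocol and the tags name the inner layers differently, so layers are given by number, counted from the outside inwards. With a single green cultivar, the effect of berry colour and any other trait of Granny Val cannot be told apart, and skin thickness also differs among the 3 cultivars.

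The colour of purple grapes comes from anthocyanins, flavonoid pigments that are made in the cytoplasm and stored in the vacuoles of the skin cells. In bunch grapes (Vitis vinifera), white berries carry disrupted copies of MYB transcription factors that switch on the last steps of pigment synthesis. In muscadine, berry colour maps to a different chromosome, where a glutathione S-transferase, of a kind that helps carry anthocyanins into the vacuole, has been put forward as the candidate. The epidermis also makes the cuticle, a layer of cutin and waxes that seals the berry. None of these genes is picked out here. The files list 26394 gene models by identifier alone, and 0 of them matched the reference gene table at hand, so pathways could not be counted and identifiers are given without names or roles.

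Reads from polyadenylated RNA were counted per gene model. Layer 1 totals ran from 43109475 to 50715766 counts in Granny Val and from 19057538 to 54090238 in the purple libraries. Levels are given in CPM, the usual rescaling of counts by the library total. In a single library, the 3 counts that a count of 0 allows at 95% confidence came to 0.0567 to 0.15 CPM, which covers counting error only. Some 20199 gene models had a count in layer 1, and 17179 passed the filter on low counts and were tested with edgeR's quasi-likelihood test. A gene model was called when its p adjusted by the Benjamini-Hochberg method was under 0.05 and the change was at least 2-fold. No label states if the replicates were separate vines, berries or extractions. The p-values measure the spread between these libraries, which may be partly technical.

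The Granny Val libraries formed a group of their own on the first principal component, while by the median correlations below Supreme was about as close to Granny Val as to Alachua. On this component, with 28.5% of the variance, the 3 Granny Val libraries lay between -131 and -96.1 and the 6 purple ones between -11.9 and 123, with no overlap. The median correlation across gene models was 0.8275 between Granny Val and Alachua, 0.8542 between Granny Val and Supreme and 0.8482 between Alachua and Supreme. Within a cultivar it was 0.9009 in Granny Val, 0.8702 in Alachua and 0.8866 in Supreme. These are descriptions across gene models, which are not independent.

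By gene sets chosen in Granny Val, a pair of purple libraries lay nearer another layer than the one on their label. Of the gene models higher in layer 1 than in each other layer of Granny Val (307), the mean log2 level relative to the Granny Val layer 1 mean was -0.2 to 0.26 in the Granny Val libraries that defined it. It was -1.82, -0.79 and -0.52 in Alachua replicates 1, 2 and 3, and -2.98, -0.5 and -0.51 in Supreme replicates 1, 2 and 3. By this score and that of 1222 inner-layer gene models, Alachua replicate 1 and Supreme replicate 1 lay nearest layer 2 of Granny Val. As the sets were chosen in Granny Val alone, differences between cultivars enter these scores too. Why these libraries lay there was not tested. Alachua replicate 1 is also the library with the lowest total and the single layer 1 library whose library name, given in the sample description, lacks a leading number. Counts are therefore given below with and without these 2 libraries.

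Against the mean of Alachua and Supreme at equal weight, 720 gene models differed in Granny Val, 4.19% of those tested. Of these, 351 were higher (2.04% of those tested) and 369 were lower (2.15%). The higher ones took 8.33% to 9.48% of all counts in the Granny Val libraries and 2.8% to 3.96% in the purple ones. A large part of these shares was that of evm.model.chr19.849 alone, with 32600 to 45900 CPM in Granny Val and 11200 to 20800 CPM in the purple libraries. The lower ones took 0.827% to 0.938% in Granny Val and 2.55% to 4.55% in the purple libraries. Both sets were chosen in these libraries, so the shares are a description only. The fitted change had the same sign against each purple cultivar for 346 of the higher and 366 of the lower. The call was made on the mean of these changes, so this agreement is largely set by the choice. The share over all gene models tested was not counted. Without the 2 libraries nearest layer 2 the count was 902, with 510 higher and 392 lower, and 585 were shared. The fit of all 36 libraries moved the balance to 196 higher and 329 lower. Leaving out Granny Val replicate 1, 2 or 3 gave 99, 224 or 205, leaving out Alachua replicate 2 gave 397, and leaving out Supreme replicate 2 or 3 gave 430 or 475.

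Among the higher gene models, the 2 with the highest levels were evm.model.chr19.849 and evm.model.chr3.523. The level of evm.model.chr19.849 was 37000, 45900 and 32600 CPM in Granny Val, 14900, 11400 and 16000 CPM in Alachua and 20800, 13100 and 11200 CPM in Supreme. Each Granny Val library was above each purple one. The log2 fold change was 1.40 (SE 0.27, adjusted p = 0.022 by edgeR's quasi-likelihood test), with adjusted p = 0.033 against Alachua and 0.076 against Supreme. This call was lost in 5 of 15 alternatives, which were the fit of 36 libraries (adjusted p = 0.053) and those without any 1 of the Granny Val replicates (up to 0.1) or without Alachua replicate 2 (0.06). For evm.model.chr3.523 the values were 5520, 4500 and 4920 CPM in Granny Val, 1860, 1690 and 1570 CPM in Alachua and 2480, 2810 and 3240 CPM in Supreme. The 3 cultivars did not overlap, with Supreme between the others. The log2 fold change was 1.18 (SE 0.18, adjusted p = 0.0096 by edgeR), and against Supreme alone it was 0.81 (adjusted p = 0.1). This call was lost without Granny Val replicate 1 (adjusted p = 0.076).

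Among the lower gene models, the 2 with the highest levels were evm.model.chr4.584 and evm.model.chr12.516. The level of evm.model.chr4.584 was 980, 1400 and 994 CPM in Granny Val, 3010, 3670 and 4030 CPM in Alachua and 4650, 1970 and 2680 CPM in Supreme, again without overlap. The log2 fold change was -1.56 (SE 0.30, adjusted p = 0.023 by edgeR), and the adjusted p against Supreme alone was 0.066. The call was lost in the fit of 36 libraries (adjusted p = 0.06), without Granny Val replicate 1, 2 or 3 (0.13, 0.064 and 0.098) and without Alachua replicate 2 (0.051). In layers 2 to 4 of Granny Val its means were 5080, 3710 and 4370 CPM. They were 3820, 4460 and 6510 CPM in Alachua and 4380, 3480 and 4160 CPM in Supreme. By the mean, layer 1 was its lowest layer in all 3 cultivars, at 1120 CPM in Granny Val, 3570 in Alachua and 3100 in Supreme. For evm.model.chr12.516 the values were 83.1, 124 and 111 CPM in Granny Val, 2010, 845 and 207 CPM in Alachua and 4750, 1650 and 515 CPM in Supreme. The highest library of each purple cultivar was the one that lay nearest layer 2. With all libraries the means were 106 ± 21 CPM in Granny Val (SD, n = 3) and 1660 ± 1660 CPM in the purple libraries (n = 6), and without those 2 the purple mean was 804 ± 621 CPM (n = 4). The log2 fold change was -3.85 (SE 0.86, adjusted p = 0.037 by edgeR), while neither cultivar alone passed (adjusted p = 0.06 against Alachua and 0.054 against Supreme). The Granny Val means of layers 2 to 4 were 4700, 9360 and 12500 CPM. Those of Alachua were 5530, 5130 and 5100 CPM, and those of Supreme were 3400, 10200 and 11400 CPM. Layer 1 again had the lowest mean in each cultivar, at 1020 CPM in Alachua and 2310 CPM in Supreme. The call was lost without Granny Val replicate 1, 2 or 3 (adjusted p = 0.16, 0.12 and 0.12), without Alachua replicate 2 (0.062) and without Supreme replicate 2 (0.057).

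**Figure D1:**
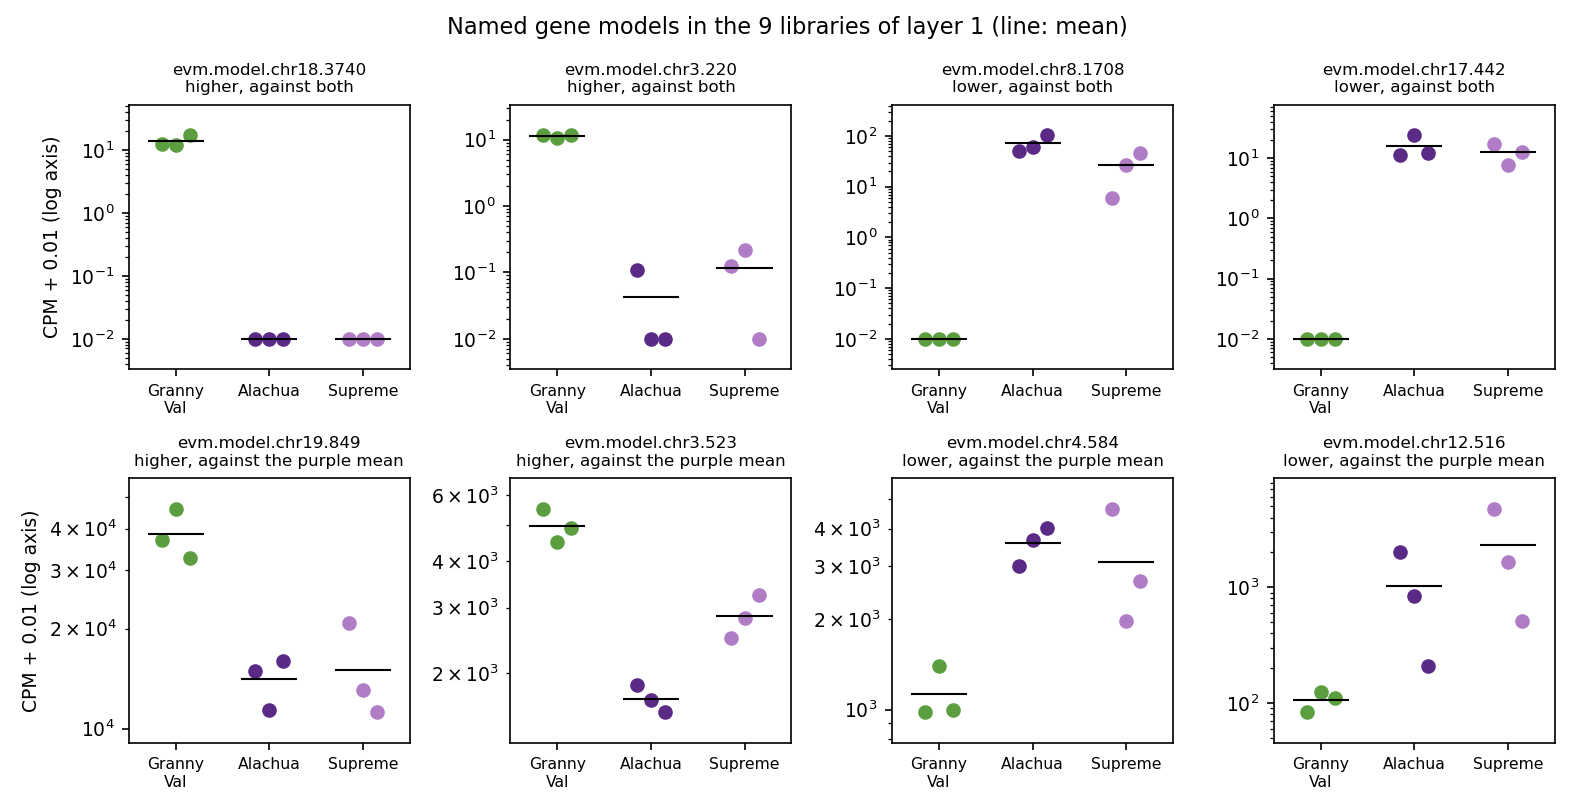
Levels of the 8 gene models named against both purple cultivars or against the purple mean in layer 1, as CPM + 0.01 on a log axis that differs between panels. Each point is 1 of the 9 libraries, with replicates 1 to 3 from left to right in Granny Val, Alachua and Supreme, and the line is the mean. Granny Val lies beyond each purple library in all 8 panels. The naming rule required this of the gene models named against both, and the others were called in these same libraries.

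The contrast with the purple mean rested more often on Alachua than on Supreme. Against Alachua, 855 gene models differed in Granny Val (4.98% of those tested), with 374 higher (2.18%) and 481 lower (2.8%). Against Supreme, 217 differed (1.26%), with 85 higher (0.495%) and 132 lower (0.768%). The difference between these counts was not tested, and both share the Granny Val libraries. Of the 720, 435 were called the same way against Alachua but not Supreme, 54 against Supreme but not Alachua, 134 against both and 97 against neither. The purple cultivars also differed from each other, in 126 gene models (0.733%), of which 61 were higher in Alachua (0.355%) and 65 were lower (0.378%). Of the 720, 55 were also called between Alachua and Supreme. The count of 126 was 324 without the 2 libraries nearest layer 2. Leaving out Granny Val replicate 1 or 3 gave 57 or 77, leaving out Alachua replicate 2 or 3 gave 49 or 43, and leaving out Supreme replicate 2 or 3 gave 62 or 38.

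The genes that separated green from purple most strictly were those called the same way against both purple cultivars. They numbered 134, or 0.78% of those tested, with 43 higher in Granny Val (0.25%) and 91 lower (0.53%). In all 134, each Granny Val library lay beyond each purple library, and 4 were also called between Alachua and Supreme. The gene models were chosen in these same libraries, so this separation and the shares of counts that follow describe the choice only. The higher set held 0.619% to 0.668% of all counts in Granny Val and 0.169% to 0.202% in the purple libraries, and the lower set 0.202% to 0.245% in Granny Val and 0.891% to 1.3% in the purple libraries. In tissue samples, fewer cells of a kind and less RNA per cell cannot be told apart.

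The lower set held the larger changes and the less abundant genes. The smaller of the fold changes against Alachua and Supreme had a median of 2.76 on the log2 scale in the lower set and 1.68 in the higher set, beside 0.33 over all gene models tested. Setting each cultivar without a count at its floor left both medians as they were. That smaller change was at least 16-fold in 33 of the 91 lower and 5 of the 43 higher, and under 4-fold in 29 and 26. On the higher side of the comparison, the median level was 27.9 CPM in the lower set (1.74 to 1500 CPM) and 95.1 CPM in the higher set (7.47 to 1250 CPM). In the lower set, 22 gene models had 0 counts in the 3 Granny Val libraries of layer 1, and 6 of these had 0 counts in all 12 Granny Val libraries of the 4 layers. In the higher set, 2 had 0 counts in the 6 purple libraries of layer 1, and 0 of the 43 were without a count in all 24 purple libraries. A count of 0 throughout is easier to reach in 3 libraries than in 6, and in 12 than in 24. These numbers therefore cannot be compared between the sets, and the share at 0 over all gene models tested was not counted.

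The balance between directions was not stable. Without the 2 libraries nearest layer 2, 247 gene models were called against both, 122 higher and 125 lower, and 112 of the 134 were among them. In the fit of all 36 libraries 19 were higher and 110 lower, with 65 shared. Leaving out Granny Val replicate 1, 2 or 3 gave 37, 65 or 45, leaving out Alachua replicate 2 gave 72, and leaving out Supreme replicate 1 or 3 gave 88 or 71. With DESeq2 in place of edgeR it was 627, with 190 higher and 437 lower. Without Alachua replicate 1, which leaves the 8 libraries with a leading number in the library name, it was 193, with 79 higher and 114 lower. The lower ones outnumbered the higher ones in each of these fits, though only 125 to 122 in 1 of them.

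**Figure D2:**
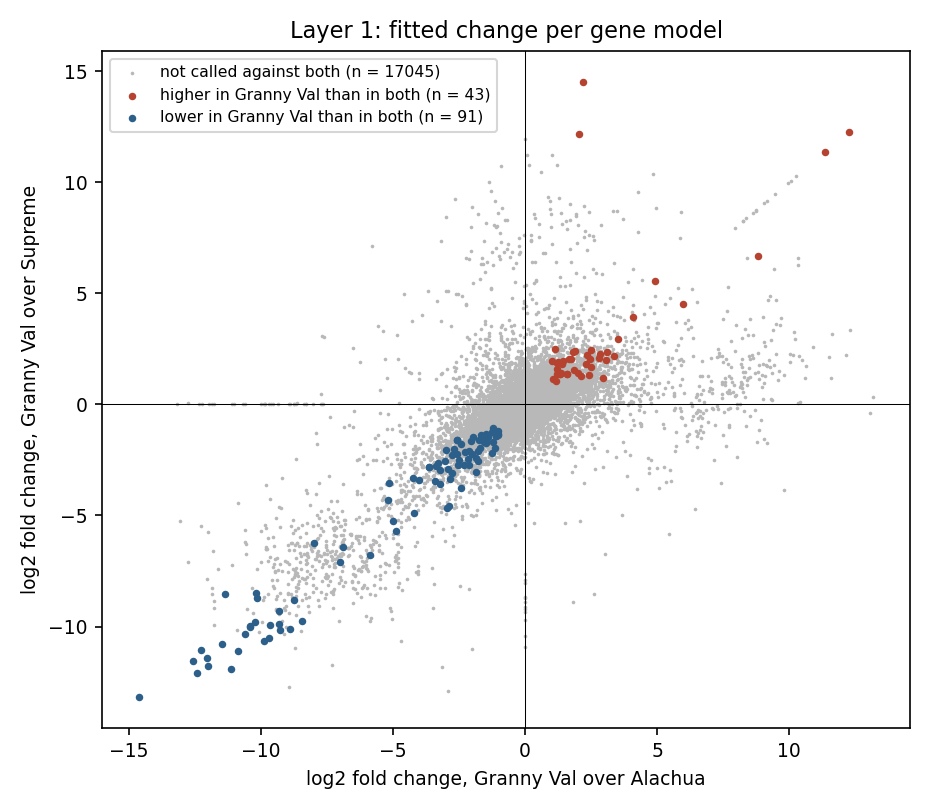
Fitted log2 fold change of each of the 17179 gene models in layer 1, Granny Val over Alachua on the x axis and Granny Val over Supreme on the y axis. The 43 gene models higher than in both cultivars (red) and the 91 lower than in both (blue) lie in opposite corners, and the blue ones reach larger changes; values where a cultivar has 0 counts are set by the fit and are not bounds.

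Among the 43 higher, the largest change was that of evm.model.chr18.3740. It had 12.4, 12.3 and 17.2 CPM in Granny Val and 0 counts in all 6 purple libraries. The Granny Val mean, 14 ± 2.79 CPM (SD, n = 3), was at least 1190-fold higher than the purple level, taking 3 counts over the 6 libraries as the floor. The adjusted p by edgeR's quasi-likelihood test was 0.0057 against Alachua and 0.0073 against Supreme. It reached 0.05 without Granny Val replicate 1 and 0.053 without replicate 3, which ended the call. The next among those with at least 10 CPM was evm.model.chr3.220, with 11.6, 10.6 and 11.6 CPM in Granny Val, 0.0999, 0 and 0 CPM in Alachua and 0.113, 0.21 and 0 CPM in Supreme. The means were 11.3 ± 0.557 CPM in Granny Val (n = 3) and 0.0706 ± 0.0862 CPM in the purple libraries (n = 6). The adjusted p was 0.016 against Alachua and 0.047 against Supreme, and the call was lost in 9 of 15 alternatives, with adjusted p up to 0.16. These 9 were the replicate block, the fit of 36 libraries and the fits without each of the 3 Granny Val and 3 Supreme libraries or without Alachua replicate 2.

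Among the 91 lower, the largest change was that of evm.model.chr8.1708. It had 0 counts in the 3 Granny Val libraries, 51.8, 59.9 and 103 CPM in Alachua and 5.86, 26.5 and 47 CPM in Supreme. Against a floor of 3 counts over the Granny Val libraries, the level was at least 3260-fold higher in Alachua and at least 1210-fold higher in Supreme. The adjusted p by edgeR was 0.0023 against Alachua and 0.0051 against Supreme, and 0.074 in the fit of 36 libraries, which ended the call. Its lowest purple value was that of Supreme replicate 1, a library nearest layer 2. The next was evm.model.chr17.442, with 0 counts in Granny Val, 11.4, 23.9 and 12 CPM in Alachua and 17.5, 7.63 and 12.6 CPM in Supreme. The level was at least 720-fold higher in Alachua and at least 575-fold higher in Supreme. Its adjusted p was 0.00083 against Alachua and 0.0014 against Supreme, and it was called in all 15 alternatives.

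The 134 gene models were set beside 4 sets of gene models that vary between layers. Of the 91 lower, 21 (23.1%) belonged to the inner-layer set of Granny Val, beside 4.78% of all gene models tested, and so did 1 of the 43 higher (2.33%). A set of 1002 gene models higher in layer 2 than in layers 3 and 4 of all cultivars held 19 of the 91 lower (20.9%) and 5 of the 43 higher (11.6%), beside 5.82% of those tested. The mean log2 level of that set was 4.57 to 4.73 in Granny Val, 4.27, 4.82 and 4.95 in Alachua replicates 1 to 3 and 4.11, 4.86 and 4.84 in Supreme replicates 1 to 3. Its lowest values were those of the 2 libraries nearest layer 2. A set of 865 gene models lower in layer 2 than in layers 3 and 4 held 3 of the 91 lower (3.3%) and 2 of the 43 higher (4.65%), beside 3.68% of those tested. The 307 gene models that marked layer 1 in Granny Val held 5 of the 43 higher (11.6%) and 0 of the 91 lower, beside 1.79% of those tested. The inner-layer set and the layer 1 set were built with the same Granny Val libraries of layer 1. Low values there favour both the inner-layer set and the lower calls, and high values both the layer 1 set and the higher calls. The shares of these sets therefore cannot show a link with the layers. The part of the layers in the green against purple differences was not tested.

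The same gene models were then followed into layers 2 to 4, where the libraries took no part in choosing them. The fits of these layers include 5 purple libraries that lay nearest another layer. In layer 2 these were replicate 1 of Supreme and replicate 3 of Alachua, in layer 3 replicate 1 of Alachua and in layer 4 its replicates 2 and 3. The Granny Val libraries defined the layers and were not themselves placed in this way. In layer 2, 5 gene models in all were called against both purple cultivars (0.0304% of those tested), 2 higher (0.0122%) and 3 lower (0.0183%). In layer 3 there were 6 (0.0357%), 2 higher (0.0119%) and 4 lower (0.0238%). In layer 4 there were 25 (0.148%), 7 higher (0.0415%) and 18 lower (0.107%). Of the 134 gene models of layer 1, 2 higher and 2 lower were called the same way in layer 2, 2 higher and 3 lower in layer 3, and 3 higher and 7 lower in layer 4. None was called the opposite way in the 3 fits. Altogether 11 were called again in at least 1 other layer, and 4 in all 3. The count of 11 was 16 without the libraries out of place, 23 in the fit of 36 libraries and 49 with DESeq2. Most of the 11 came from layer 4: leaving out Granny Val layer 4 replicate 1 or 2 gave 6 or 7, leaving out Alachua replicate 1 or 2 of that layer gave 18 or 6, and leaving out its Supreme replicate 2 or 3 gave 7.

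Most kept the sign of their fitted change. In layer 2, 33 of the 42 higher gene models that could be tested were higher in Granny Val (78.6%), beside 47.7% of all gene models, and 86 of the 88 lower were lower (97.7%), beside 52.3%. In layer 3 these numbers were 39 of 42 (92.9%, beside 48.6%) and 82 of 86 (95.3%, beside 51.4%). In layer 4 they were 40 of 42 (95.2%, beside 53.6%) and 83 of 85 (97.6%, beside 46.4%). The shares set beside these are over all gene models tested in the layer, whatever sign they had in layer 1. All 3 inner layers had the sign of layer 1 for 30 of the 42 higher and 80 of the 85 lower gene models tested throughout. Over all gene models of that sign in layer 1, the share was 35.2% for the higher and 37.5% for the lower. In layer 1 the median log2 fold change against the purple mean was 2.06 in the higher and -3.06 in the lower set. The medians were 0.91 and -1.43 in layer 2, 0.94 and -1.41 in layer 3, and 1.49 and -1.51 in layer 4. The members were chosen for their size in layer 1, so the medians of layer 1 are given as a description only. Members without enough counts in a layer were left out there, and all medians were unchanged with cultivars at 0 counts set at their floor.

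**Figure D3:**
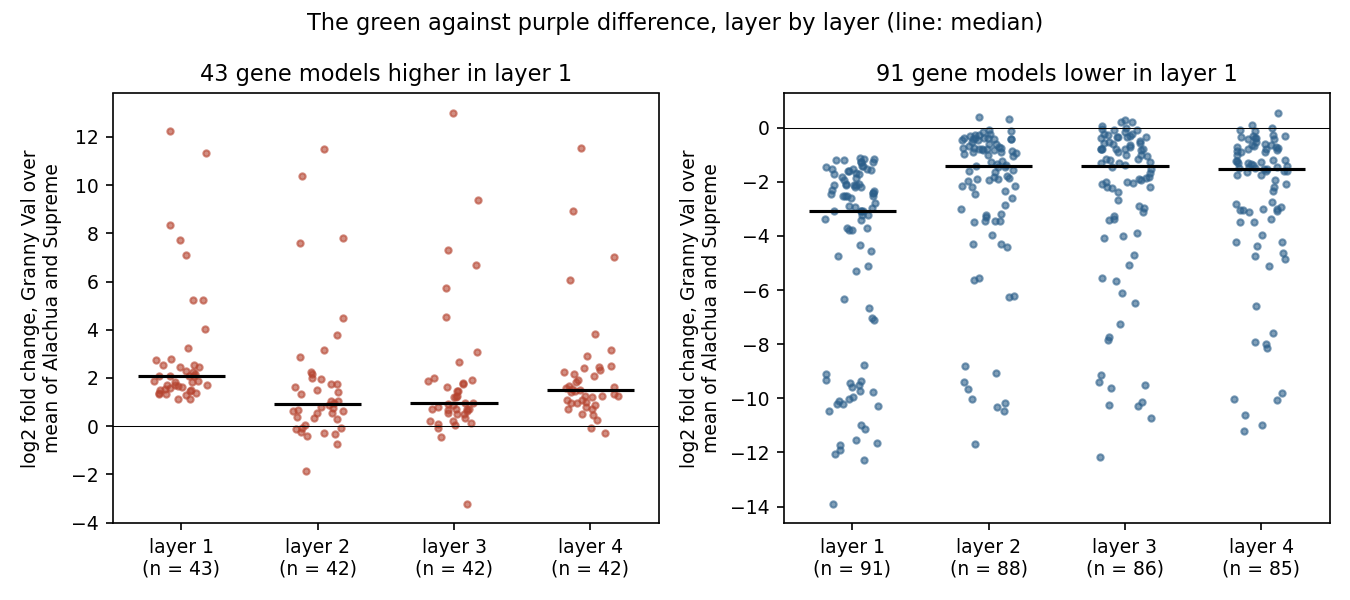
Log2 fold change of Granny Val over the mean of Alachua and Supreme in layers 1 to 4, for the 43 gene models higher (left) and the 91 lower (right) in layer 1. Each point is a gene model, the line is the median and n is the number tested in that layer; the points of layers 2 to 4 stay mostly on the side of 0 they had in layer 1, closer to it.

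**Figure D4:**
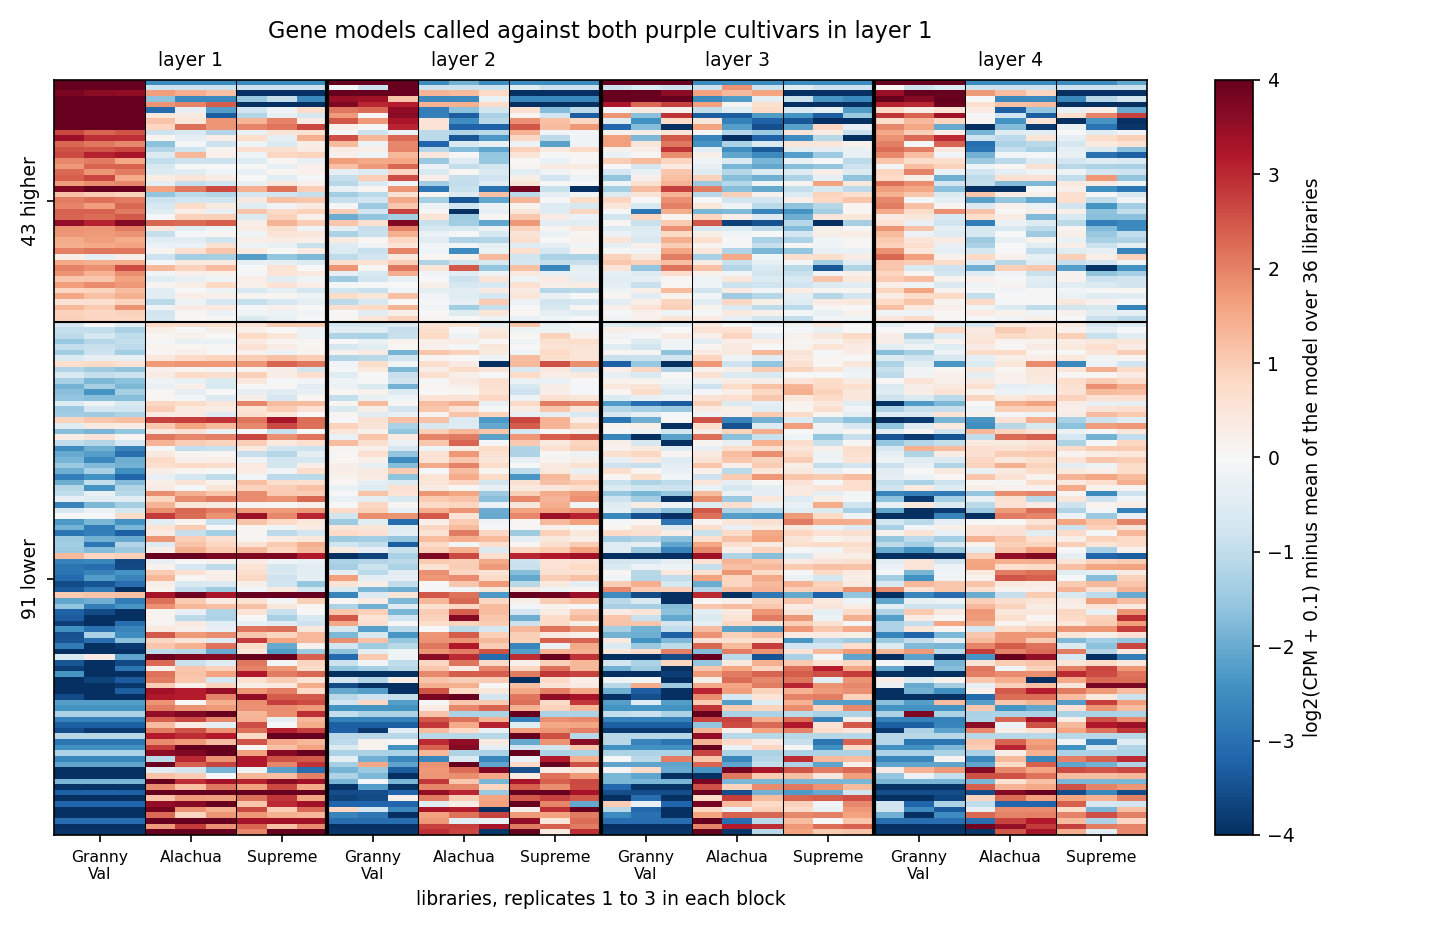
Level of the 134 gene models in each of the 36 libraries, as log2(CPM + 0.1) minus the mean of the gene model, with colours limited at -4 and 4. Libraries run by layer and, within it, Granny Val, Alachua and Supreme, and gene models are ordered by their change in layer 1. The gene models were chosen for their difference in layer 1, and part of them show the same colours in Granny Val in layers 2 to 4.

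The gene models called in all 4 layers included evm.model.chr18.3740 and evm.model.chr17.442. In layers 2 to 4, evm.model.chr18.3740 averaged 22.3 ± 6.37, 20.5 ± 4.73 and 18.1 ± 10.2 CPM in Granny Val (SD, n = 3 each). It had 0.0561 CPM in 1 Alachua library of layer 2, 0.0347 CPM in 1 Supreme library of layer 4 and 0 in the rest of the purple libraries of these layers. For evm.model.chr17.442 the Granny Val means were 0.0321, 0.0259 and 0.0186 CPM in layers 2 to 4. The means were 26 ± 5.9, 23.3 ± 8.82 and 36.8 ± 12.7 CPM in Alachua and 15.3 ± 1.98, 14.6 ± 3.13 and 16.4 ± 5.15 CPM in Supreme. For evm.model.chr3.220 the Granny Val means were 4.63 ± 2.96, 11.2 ± 2.8 and 10.6 ± 3.62 CPM, and each purple mean was at most 0.169 CPM. Its adjusted p missed the threshold against both purple cultivars in each of layers 2 to 4, at 0.1 or more. For evm.model.chr8.1708, the 9 Granny Val libraries of these layers had 0 counts. Alachua replicates 1, 2 and 3 had 11.3, 9.43 and 0 CPM in layer 2, 111, 0 and 0.597 CPM in layer 3 and 0, 8.18 and 14.4 CPM in layer 4. Of these, replicate 3 of layer 2, replicate 1 of layer 3 and replicates 2 and 3 of layer 4 were out of place, and the value of 111 CPM came from a library that lay nearest layer 1. In Supreme, replicates 1, 2 and 3 had 31, 1.86 and 11.3 CPM in layer 2, where replicate 1 was out of place. They had 4.37, 2.99 and 3.19 CPM in layer 3 and 3.96, 1.02 and 5.57 CPM in layer 4. In layers 2 to 4 the adjusted p by edgeR was 0.21, 0.31 and 0.074 against Alachua. Against Supreme it was 0.33, 0.79 and 0.21, so the gene model was not called there.

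Whether the difference between Granny Val and the purple cultivars was of another size in layer 1 than in layers 2 to 4 was tested directly in the fit of 36 libraries. Of 19241 gene models, 51 passed (0.265%), 18 with a more positive difference in layer 1 (0.0936%) and 33 with a more negative one (0.172%), while 2141 had an unadjusted p under 0.05. Of the 134 called against both, 10 were among the 51, with the sign they had in layer 1, and so were 27 of the 720. The count was sensitive to the libraries: it was 32 without the 6 libraries of the series that lay nearest another layer in an earlier analysis of these data, and 11 when Alachua layer 1 replicate 1 was left out as well. Leaving out Granny Val layer 1 replicate 1, 2 or 3 gave 6, 6 or 8, leaving out Alachua replicate 1 gave 9, and leaving out Supreme replicate 1 or 2 gave 9 or 30. For single libraries of layer 2, the count was 21 or 28 if Granny Val replicate 1 or 2 was left out and 25 if it was Alachua replicate 1. For layer 3 it was 11 for Granny Val replicate 1, 33 for Alachua replicate 2 and 26 or 23 for Supreme replicate 2 or 3. For layer 4 it was 28 or 31 for Granny Val replicate 2 or 3, 33 or 29 for Alachua replicate 1 or 2 and 30 for Supreme replicate 2.

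The largest difference among those named from this test was that of evm.model.chr5.2445. In layer 1 it had 18.2, 44 and 30.9 CPM in Granny Val, 7.44, 16.1 and 25.3 CPM in Alachua and 3.95, 22.6 and 15.5 CPM in Supreme, so that the cultivars overlapped. Against the purple mean, its adjusted p by edgeR was 0.27 in layer 1 and 0.26, 0.029 and 0.064 in layers 2 to 4. In layers 2 to 4 the Granny Val means were 0.54 ± 0.653, 0.0538 ± 0.0302 and 0.318 ± 0.292 CPM (SD, n = 3 each). The Alachua means there were 5.47 ± 3.21, 12.6 ± 11.4 and 9.24 ± 3.52 CPM, and the Supreme means were 9.87 ± 6.96, 3.95 ± 1.24 and 5.88 ± 1.95 CPM. Granny Val thus had this transcript mostly in layer 1, and the purple cultivars in all 4 layers. The log2 difference between layer 1 and the others was 6.09 (SE 0.91, adjusted p = 0.003 by edgeR), and it was called in all 42 alternatives.

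The other gene models named in this way had smaller differences. For evm.model.chr3.847, Granny Val had 202, 140 and 162 CPM in layer 1, beside 34.9, 70.7 and 78 CPM in Alachua and 61.1, 56.1 and 90 CPM in Supreme. In layers 2 to 4 its Granny Val means, 47.3, 22 and 49.9 CPM, were below each purple mean of the same layer. These inner differences from the purple mean did not pass, with adjusted p by edgeR of 0.66, 0.59 and 0.51. The log2 difference was 1.95 (SE 0.34, adjusted p = 0.015 by edgeR), and the call was lost without Granny Val layer 1 replicate 1 (adjusted p = 0.081) and without the 7 libraries (0.053). For evm.model.chr13.20, the layer 1 values were 71.2, 44.4 and 58.1 CPM in Granny Val, 111, 92.1 and 79.3 CPM in Alachua and 152, 89.9 and 88.6 CPM in Supreme. In layers 2 to 4 the Granny Val means were 137, 154 and 163 CPM, above each purple mean of the same layer, which lay between 91.2 and 118 CPM. Against the purple mean it was called in no layer. The adjusted p by edgeR was 0.083 in layer 1 and 0.52, 0.58 and 0.19 in layers 2 to 4. Its log2 difference was -1.28 (SE 0.22, adjusted p = 0.015), lost without Granny Val layer 1 replicate 2 (0.11) or 3 (0.053) and without the 7 libraries (0.076). For evm.model.chr7.847, layer 1 had 153, 197 and 180 CPM in Granny Val, 288, 210 and 224 CPM in Alachua and 361, 250 and 159 CPM in Supreme, with overlap. Against the purple mean, its adjusted p by edgeR was 0.28 in layer 1 and 0.13, 0.14 and 0.064 in layers 2 to 4. The Granny Val means of layers 2 to 4 were 491, 696 and 606 CPM and those of Alachua 209, 246 and 205 CPM, with Supreme at 240 and 448 CPM in layers 2 and 3 and at 424 to 611 CPM in the libraries of layer 4. Its log2 difference was -1.52 (SE 0.27, adjusted p = 0.015), lost without Granny Val layer 1 replicate 1, 2 or 3 (adjusted p = 0.093, 0.077 and 0.053).

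By the chromosome in their identifiers, the 134 gene models were spread over all 20 chromosomes. The share of tested gene models called against both ran from 0.476% on chromosome 10 to 1.25% on chromosome 3, with 13 calls on chromosome 18 and 11 on chromosome 6. Chromosome 2, where the colour locus of bunch grapes lies, had 4 higher and 3 lower (0.901%), and chromosome 4 had 2 higher and 4 lower (0.606%). No source used here says if chromosomes are numbered as in other grape genomes. With neighbours taken as identifiers within 20 running numbers, 108 of the 134 stood alone, 10 runs held 2 and 2 runs held 3. On chromosome 3, 3 of the 4 tested gene models numbered 82 to 91 were lower in Granny Val. On chromosome 6, 3 of the 10 numbered 875 to 888 were higher. Neighbouring members of a gene family can share reads, so the counts within such a run may not be independent of each other.

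**Figure D5:**
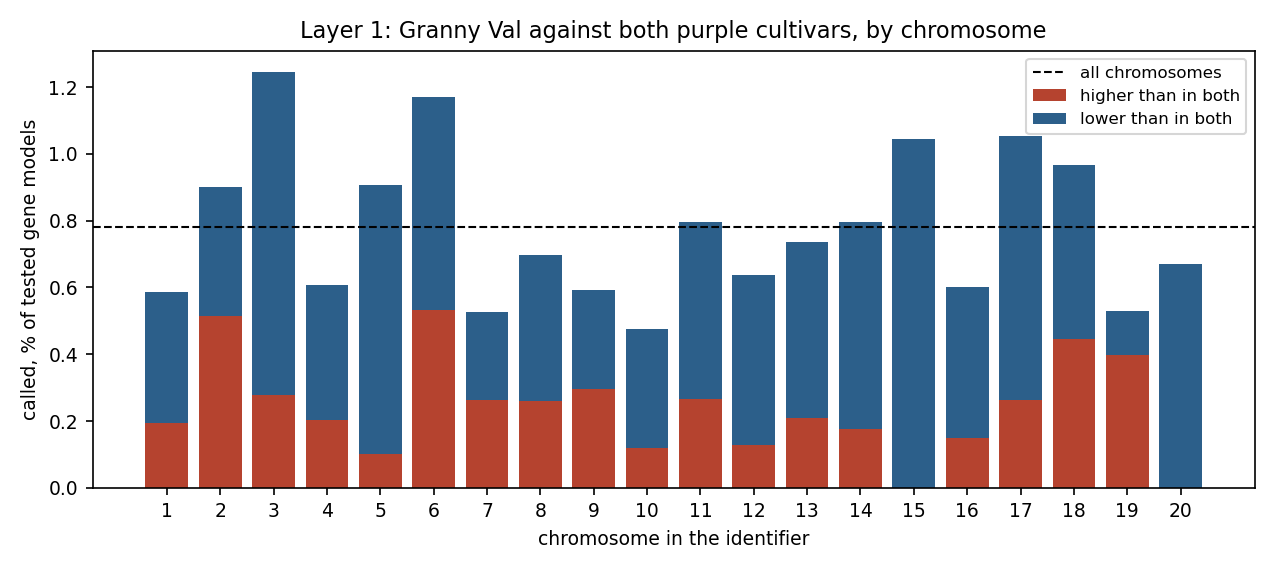
Share of tested gene models called against both purple cultivars in layer 1, in percent, for each chromosome named in the identifiers. Red is higher in Granny Val and blue is lower, stacked; the dashed line is the share over all chromosomes, 0.78%. Chromosome 3 has the highest share, 1.25%, and chromosome 10 the lowest, 0.476%.

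The number of gene models detected was compared by library. At 1 CPM or more, Granny Val had 14243 ± 315.5 gene models (SD, n = 3) and the purple libraries 14407.5 ± 193 (n = 6). The difference of -164.5 did not pass an exact permutation test (two-sided p = 0.37, where 84 splits allow a p of 0.012 at the lowest). It was 10 without Granny Val replicate 2, the library with the lowest number. At 5 CPM or more the difference was -210.5 (exact two-sided p = 0.06).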

How the data were processed

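The authors deposited raw counts per gene model in a table for each library. The tools named in the submitters' processing notes are HTSeq 0.11.2, STAR, cutadapt, DESeq2 and SAMtools, with no role or order. No source used here gives the genome build or says if counting used strand, so overlapping genes on opposite strands, and near-identical copies, have uncertain counts. Reads outside any gene model (8.78% to 9.44% of the counted reads in Granny Val and 7.73% to 12.5% in the purple libraries) and the other special lines were removed.

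From these counts, CPM and log2 fold changes were computed with edgeR 4.0.16 in R 4.3.3: filterByExpr by group, TMM scaling, 3 group means, the quasi-likelihood F test with 6 residual degrees of freedom and Benjamini-Hochberg adjustment over the 17179 gene models tested. Layer 1 levels are scaled within layer 1, and levels of layers 2 to 4 over all 36 libraries. Layers 2 to 4 were fitted separately in the same way. The difference between layers was tested in the fit of 36 libraries, with 24 residual degrees of freedom. Folds against a group at 0 counts use a floor of 3 counts over the group. The script was tested on simulated counts. No pair of libraries was identical (0 pairs), and replicates differed by 100 to 484 times the sampling variance.

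Gene models were named by rule, at most 2 higher and 2 lower per comparison. Against both purple cultivars, these had the largest smaller fold, no overlap and at least 10 CPM on the higher side. Against the purple mean they had the highest level, and for the difference between layers the smallest adjusted p with at least 10 CPM in layer 1. The comparison, the rules and the lists were chosen with earlier results of these data known. Alternatives were RLE scaling, no filter, DESeq2 1.42.0, a replicate block, all 36 libraries, no fold minimum and leaving out libraries.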

Additional observations from a re-analysis of the deposited data

Results flagged for a closer look

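The library Alachua layer 1 replicate 1 had 19057538 counts, far below the other 5 purple libraries of layer 1. It was the single outlier among 23 sets of 6 purple values examined, and chance marks about 1 in 20 such sets. The counts without it are given in the report.

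The difference between Granny Val and the purple cultivars was of another size in layer 1 than in layers 2 to 4 for 51 gene models by edgeR's quasi-likelihood test. The log2 differences of those named were 6.09 for evm.model.chr5.2445, 1.95 for evm.model.chr3.847, -1.28 for evm.model.chr13.20 and -1.52 for evm.model.chr7.847. Of these, evm.model.chr5.2445 was called in each alternative run, and the others were lost in 2 or 3 of 42.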

How the results depend on the processing

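RLE scaling and the removal of the fold minimum moved no count by more than 1.5 times. DESeq2 called more throughout: 1675 against the purple mean, 627 against both, 621 between Alachua and Supreme, 461 for the difference between layers and 49 called again in another layer. Without the 2 libraries nearest layer 2, a choice made after seeing the data, 247 were called against both and 324 between Alachua and Supreme. For the difference between layers the count was 32 without the 6 libraries out of place and 11 without 7. The 11 called again became 18 with no filter and 23 in the fit of 36 libraries. Leaving out 1 library gave 99 to 735 against the purple mean, 37 to 193 against both, 38 to 176 between Alachua and Supreme, 6 to 65 for the difference between layers and 6 to 18 called again; for detected gene models it gave differences of -297 to 10, and 10, without Granny Val replicate 2, reverses the sign. The causes were not tested. Depth limits gene models under the floor, which at 0.15 CPM is highest in Alachua replicate 1.

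With the replicate number as a block, 718 were called against the purple mean (583 shared), 137 against both (101 shared), 99 between Alachua and Supreme, 30 for the difference between layers and 7 again in another layer. The numbers share no stated source: of 9 same-numbered pairs, correlations of deviations ran from -0.0877 to 0.257 and 2 were over 0.1.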

Other observations

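Granny Val and the purple libraries overlapped in how far counts were concentrated: the 10 most abundant gene models took 15.3% to 16.8% of counts in Granny Val and 13.7% to 18.1% in the purple libraries. Of the 720 gene models called against the purple mean, 195 lay in 54 runs of 3 or more within 20 running numbers, and 15 of these runs moved in 1 direction. The longest held 7 of the 34 tested gene models numbered 210 to 263 on chromosome 17, with 3 higher and 4 lower in Granny Val. These are counts with no test.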
